A study of Mus musculus with 6 samples.

Results

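The genes described here build and serve the cilium and the sperm tail. They comprise the protein-coding genes whose GENCODE vM21 symbol starts with Rsph, Tekt, Dnah, Dnaic, Dnal, Cfap or Ift followed by a number or letter, together with Spag1, Spag6, Spag6l, Spag16, Spag17, Ropn1, Ropn1l, Ccdc39, Ccdc40, Drc1, Drc3 and Drc7. By this naming rule 90 of the 49584 genes in the count table were members, 14 of them named for intraflagellar transport and 76 for the axoneme or for its assembly. Dnal1 and Dnal4 are counted among the 90, and a strict reading of the naming pattern would leave 88.

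The libraries came from mouse spermatocytes of early meiotic prophase, at the leptotene and zygotene stages, which were sorted by flow cytometry from testes at postnatal day 12. There were 3 libraries with the genotype Srp68 SKO and 3 wild type libraries. Srp68 encodes a protein of the signal recognition particle, which guides ribosomes making secreted and membrane proteins to the endoplasmic reticulum. The sources used here do not give what SKO abbreviates, the strain, any Cre driver of the deletion or any pooling of animals. Both genotypes went through the same dissociation, sorting and Smart-seq2 amplification, per the labels.

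A motile axoneme is a ring of microtubule doublets around a central pair. Dynein arms on the doublets produce the sliding force, radial spokes pass signals between the central pair and the arms, and the nexin-dynein regulatory complex links neighbouring doublets. Intraflagellar transport (IFT) moves building material along the doublets, with IFT-B trains and kinesin-2 going out and IFT-A with dynein-2 coming back. In the mouse testis the tail itself is built in round spermatids, after meiosis, while transcription of several axonemal genes starts in spermatocytes, and RFX and MYB family transcription factors are known regulators of ciliary and meiotic genes.

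Srp68 was lower in every SKO library, with 147, 70 and 72 counts in SKO libraries, against 337, 505 and 345 counts in wild type libraries (log2 fold change -1.52, SE 0.28, edgeR adjusted p = 0.00107). Total counts were 11.9 to 12.7 M in SKO libraries and 14.3 to 15.4 M in wild type libraries, so 3 counts were worth 0.247 to 0.289 CPM in SKO libraries and 0.174 to 0.196 CPM in wild type libraries. All levels below are in CPM, read counts scaled to a common library size with TMM factors. The sorted stage was represented in both genotypes: the 20 leptotene and zygotene markers, such as Sycp3 and Dmc1, summed to 32010 to 41650 CPM in SKO libraries and to 18580 to 22970 CPM in wild type libraries, and 16 were higher and 1 lower in SKO. Markers of pachytene, the following stage, summed to 779.6 to 866.5 CPM in SKO libraries and to 1064 to 1177 CPM in wild type libraries. Of the 17 tested pachytene markers 9 were lower (52.9%) and 1 higher (5.88%) in SKO. For the marker counts in this paragraph the background was 14.4% lower and 14.1% higher among all tested genes. Round spermatid markers summed to 24.48 to 29.96 CPM in SKO libraries and to 38.0 to 48.0 CPM in wild type libraries, with Tnp2, Prm2, Prm3 and 4 other of the 20 genes at 0 in every library. The 13 markers of multiciliated epithelium summed to 316.7 to 422 CPM in SKO libraries and to 857.6 to 1090 CPM in wild type libraries, and 3 of the 6 tested, Tubb4b, Epcam and Dynlrb2, were lower in SKO. Most of that sum was the tubulin gene Tubb4b, with 321.1, 269 and 214.3 CPM in SKO libraries, against 722.5, 940.2 and 719.8 CPM in wild type libraries. The defining regulators Foxj1 and Mcidas had at most 2 counts in any library. Sertoli cell markers summed to 594.1 to 884.9 CPM in SKO libraries and to 472 to 534.3 CPM in wild type libraries, with 1 of 10 tested, Ctsl, higher in SKO. Spermatogonial markers summed to 1354 to 1460 CPM in SKO libraries and to 1064 to 1148 CPM in wild type libraries. Of the 13 tested spermatogonial markers 2 were higher and 3 lower in SKO. Stage and cell type marker levels thus moved with genotype, and their part in the differences below was not tested. Whether the 3 libraries of a genotype stem from different mice is not stated in the labels, so a p-value here reflects spread among libraries that may be technical.

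Most members with a clear difference were lower in SKO, among the IFT genes and the axonemal genes alike. Of the 90 members, 60 had enough counts to be tested. Of these, 21 were lower and 3 higher in SKO at an adjusted p under 0.05 in edgeR's quasi-likelihood test, and 36 did not pass. Among all 13474 tested genes, 14.4% were lower and 14.1% higher by the same rule. The lower members thus made up 35% of the tested ones and the higher members 5%. Members are all protein-coding, and among the 11383 tested protein-coding genes 16.4% were lower and 14.7% higher. Of the 14 IFT members 5 were lower (35.7%) and 2 higher (14.3%). Of the 46 tested axonemal members 16 were lower (34.8%) and 1 higher (2.17%). The median log2 fold change (SKO over wild type) was -0.65 over the tested members, -0.03 over all tested genes and -0.08 over tested protein-coding genes. Of the 60 tested members 47 had values below zero. In 30 of the 60 members every SKO library lay below every wild type library, against 22.2% of all tested genes, and in 8 every SKO library lay above, against 21.6%. Of the 21 lower members, 15 had a log2 fold change of -1 or less, and their SKO means ran from 4.29% to 76.9% of the wild type means. The 3 higher members, Ift74, Ift81 and Dnal1, had SKO means 1.46 to 1.64 times the wild type means.

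These counts depend on how libraries are scaled, as TMM factors were 0.8787 to 0.9569 in SKO libraries and 1.07 to 1.125 in wild type libraries. When scaled by library totals, the median of all tested genes moved to -0.29, the share of higher genes among all calls moved to 24.2% from 49.5%, and members split into 29 lower and 1 higher. The members' median lay 0.62 below that of all genes under both scalings. Scaling shifts all genes about alike, so this gap could hardly move and is no test of the scaling. In such bulk libraries fewer cells of a type and less RNA per cell cannot be told apart.

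**Figure D1:**
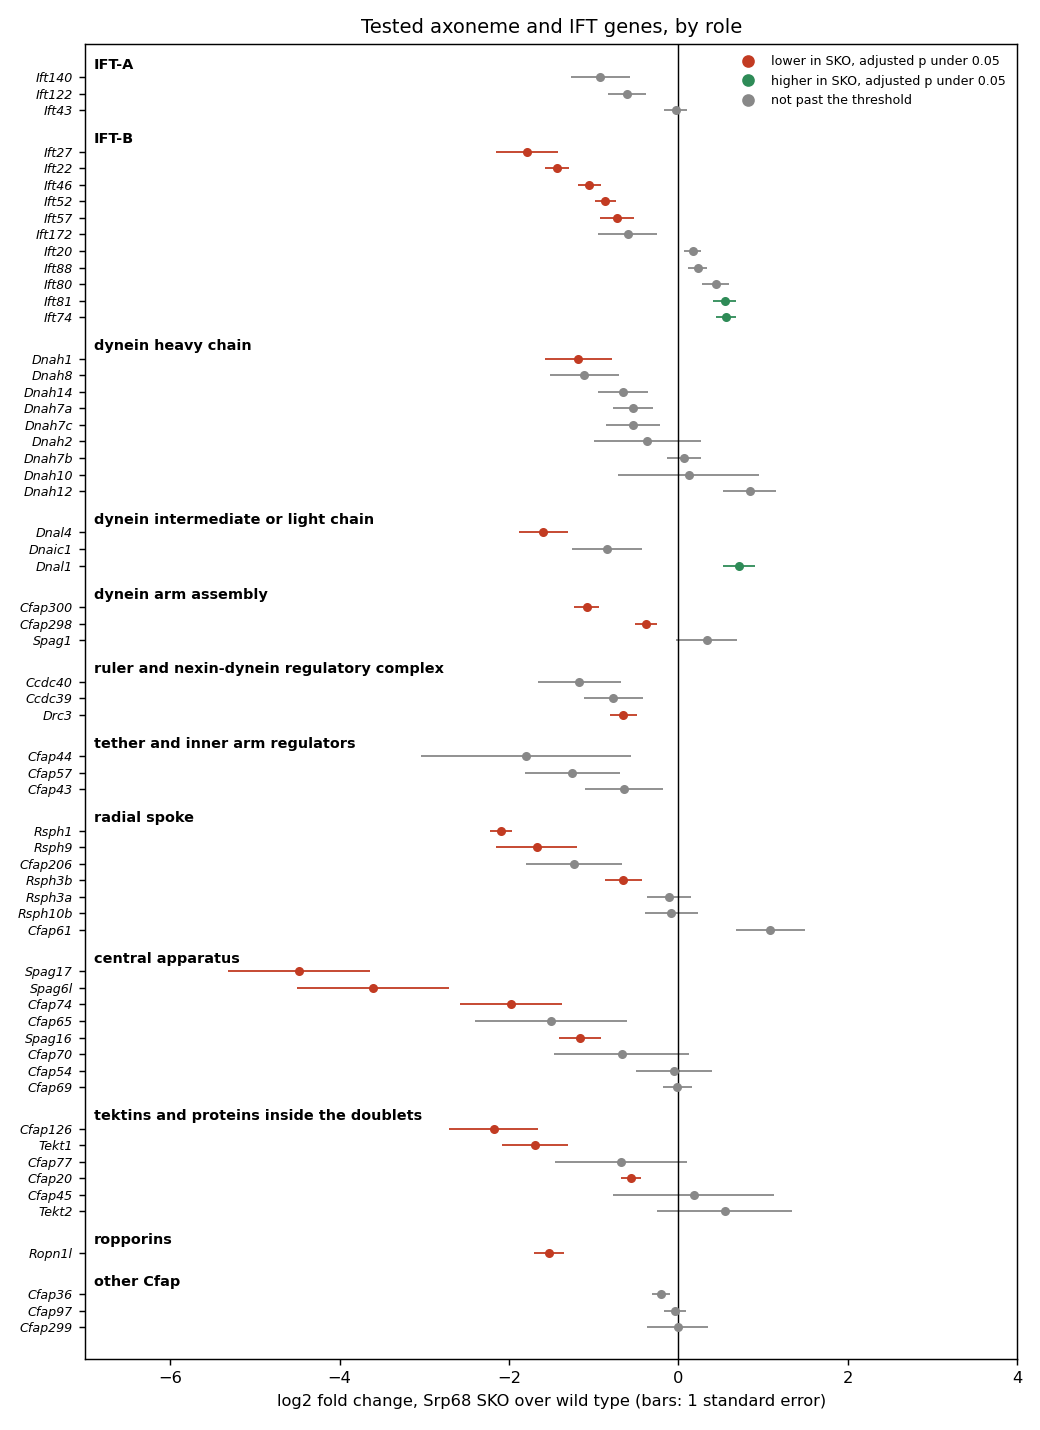
Log2 fold change, Srp68 SKO over wild type, of the 60 tested axoneme and IFT genes, grouped by role, with bars of 1 standard error from the edgeR fit. The 21 lower members (red) occur in 9 of the 12 role groups, and the 3 higher members (green) are 2 IFT-B genes and a dynein light chain.

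The summed level of the 76 axonemal members was 1222 ± 13.4 CPM in SKO libraries and 1849 ± 18.2 CPM in wild type libraries (SD, n = 3 each). The 14 IFT members summed to 1335 ± 64.7 CPM in SKO libraries and 1283 ± 45.5 CPM in wild type libraries (SD, n = 3 each), and the libraries of the genotypes overlapped. Within them the IFT-A sum was 105.3 to 120.4 CPM in SKO libraries, below the 124.8 to 140.2 CPM of wild type libraries. Rsph1 alone made up 256.9 of the 627.1 CPM by which the axonemal sum was lower in SKO, or 41%. Without Rsph1 the axonemal sum was 1144 ± 12.0 CPM in SKO libraries, against 1514 ± 36.0 CPM in wild type libraries (SD, n = 3 each). Every SKO library, at 1132 to 1156 CPM, still lay below every wild type library, at 1475 to 1546 CPM.

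**Figure D2:**
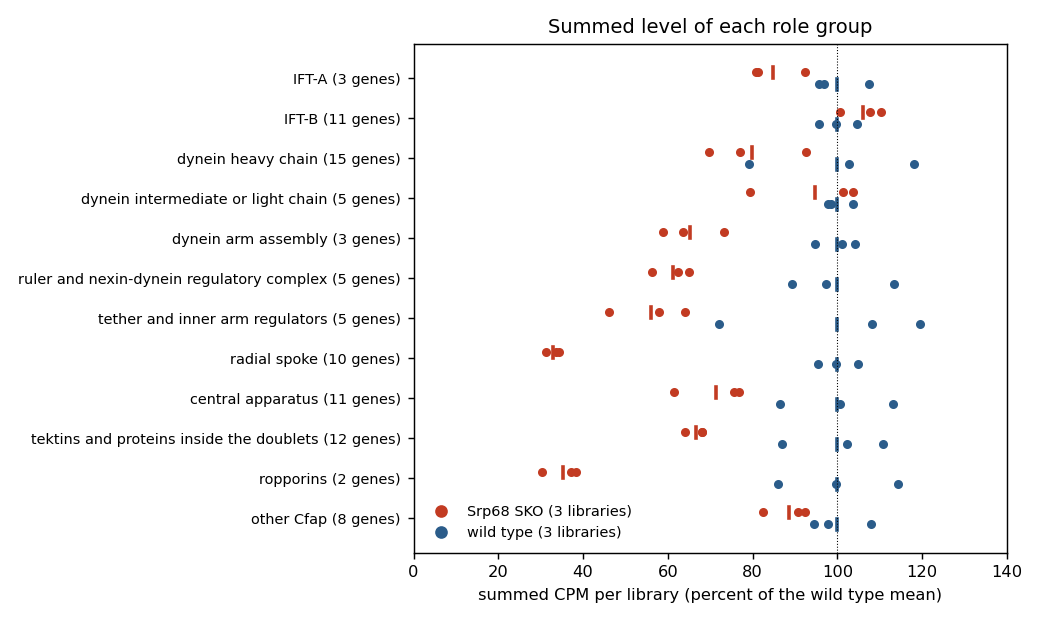
Summed CPM of each role group in every library, as a percent of the wild type mean, with ticks at the group means. The radial spoke and ropporin sums of the SKO libraries average 33% and 35.2% of wild type, while the IFT-B sum averages 106%.

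Promoters are shown here because many of these genes share a motif of the RFX factors. RefSeq (GRCm38.p6) gave a promoter, 250 bases before to 50 after the start, for 75 of the 90 members. The letters GTTGCC, on either strand, occurred in 29 of the 75 (38.7%), against 14.1% of the 27025 genes with such a window and 15% of tested genes other than members. Among the 20 lower members with a promoter 11 held it (55%), against 16.6% of the other genes that were lower in SKO. Among the 28 members that did not pass the test 9 held it, and neither of the 2 higher members with a promoter did. A pair of facing motifs, GTTNCC followed by GGNAAC with at most 3 bases between, occurred in 2 of the 75 promoters, among them that of Cfap298, against 0.936% of all genes. Such a match is a description of letters and not a binding site. The runs below, on the strand of each gene, come from 6 of the lower members with the motif before their RefSeq start. They were picked to show its single, double and facing arrangements. By GENCODE vM21 positions the runs of Cfap298, Tekt1, Ropn1l and Ift27 lie within the gene, and those of Spag16 and Cfap300 before it. Capitals mark GTTGCC, its reverse complement GGCAAC, or the whole facing pair.
Cfap298 (distal): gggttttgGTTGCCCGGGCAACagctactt
Cfap298 (proximal): gtttgactGTTGCCCCTGGCAACagccact
Spag16: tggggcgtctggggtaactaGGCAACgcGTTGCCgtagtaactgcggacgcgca
Tekt1: agGGCAACgttgcgtccgtccgGTTGCCat
Ropn1l: tgcgcagctcggGTTGCCtggagaccgcac
Ift27: gggttgatgatgGTTGCCagg
Cfap300: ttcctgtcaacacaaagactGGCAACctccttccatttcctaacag

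The Spag16 run is chr1:69826839-69826892 on the plus strand. On the minus strand lie Cfap298 distal at chr16:90935016-90935045, Cfap298 proximal at chr16:90934897-90934926, Tekt1 at chr11:72361890-72361919, Ropn1l at chr15:31453692-31453721, Ift27 at chr15:78174082-78174102 and Cfap300 at chr9:8042972-8043017. The facing pairs of Cfap298 span positions -188 to -175 and -69 to -55, counted back from the RefSeq start. The motifs of Ift27 and Ropn1l lie at -9 to -4 and -20 to -15, closer to the start than that of Cfap300 at -122 to -117. Spag16 carries the motif in both orientations, 2 bases apart. The MYB core AACTG, on either strand, was in 49 of 75 member promoters (65.3%), against 48.2% of all genes, and the forkhead motif TGTTTAC in 4 of 75 (5.33%), against 4.05%. These 5-base to 7-base searches can overlap each other, and no letters were searched outside the windows.

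Of the transcription factors linked to cilia and meiosis, 13 of 19 listed genes were tested. In SKO 3 were higher (23.1%) and 1 lower (7.69%), against 14.1% and 14.4% of all tested genes. With so few genes these shares are coarse. Rfx3, which drives ciliary genes, had 21.9, 30.9 and 25.7 CPM in SKO libraries, against 10.6, 10.7 and 12.0 CPM in wild type libraries (log2 fold change 1.23, edgeR adjusted p = 0.000975). Rfx2, the RFX factor needed for spermatid tail genes in the mouse, had 5.10, 5.03 and 5.00 CPM in SKO libraries, against 6.38, 6.43 and 9.43 CPM in wild type libraries, and did not pass (log2 fold change -0.55, SE 0.34, edgeR adjusted p = 0.252). Mybl1, the A-MYB activator of pachytene genes, was slightly higher in SKO (log2 fold change 0.47, edgeR adjusted p = 0.0299), as was Rfx7 (0.54, edgeR adjusted p = 0.0306). E2f4, a cell cycle factor that also acts in multiciliated cells, was lower (log2 fold change -1.42, edgeR adjusted p = 0.0011).

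Radial spokes held the largest absolute loss. Rsph1 (ENSMUSG00000024033, chr17:31255019-31277383, minus strand, GRCm38), a MORN-repeat protein of the spoke head also known as meichroacidin, had 1060, 876 and 692 counts in SKO libraries, against 4922, 6288 and 4957 counts in wild type libraries. These were 87.2, 81.5 and 66.6 CPM in SKO libraries, against 317, 364 and 325 CPM in wild type libraries. The SKO mean of 78.5 ± 10.7 CPM was 23.4% of the wild type mean of 335 ± 25.3 CPM (SD, n = 3 each), with no overlap. The log2 fold change was -2.10 (SE 0.13, edgeR adjusted p = 2.85e-07), and Rsph1 kept its call in all 15 other settings that were run, with log2 fold changes from -2.35 to -1.96. Rsph1 overlapped no exon of another gene. Per kilobase of exon it had the highest level of all members in wild type libraries, at 244 ± 18.4 CPM per kb. In SKO libraries it was in place 4 of the members, at 57.2 ± 7.77 CPM per kb.

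The rest of the spoke was much less abundant and less uniform. Rsph9, another head subunit (chr17:46122035-46144216, minus strand), had 2.22, 2.79 and 2.02 CPM in SKO libraries, against 9.15, 3.19 and 10.2 CPM in wild type libraries. The groups did not overlap, but wild type library 2 came close to the SKO range (log2 fold change -1.68 with SE 0.47, edgeR adjusted p = 0.0164). The Rsph9 call was lost in limma-voom (-1.47, adjusted p = 0.0837), after the GC content and length correction (-1.33, edgeR adjusted p = 0.0596), without SKO library 3 (-1.58, edgeR adjusted p = 0.0556), without wild type library 1 (-1.51, edgeR adjusted p = 0.069) and without wild type library 3 (-1.39, edgeR adjusted p = 0.072). Rsph3a and Rsph3b, paralogs for the A-kinase anchoring spoke protein, share 79.3% and 77.7% of their 50-base windows, mainly with each other, so how reads split between them is uncertain. Rsph3b (chr17:6904413-6948682, minus strand) had 18.1, 18.5 and 16.7 CPM in SKO libraries, against 34.7, 28.0 and 21.0 CPM in wild type libraries, and just passed (log2 fold change -0.65, edgeR adjusted p = 0.0415). It missed the threshold in 8 of the other 15 settings, among them the leaving out of any SKO library (edgeR adjusted p = 0.0854 to 0.124) or of wild type library 1 or 2 (edgeR adjusted p = 0.184 and 0.0918). Rsph3a had 15.3, 19.7 and 24.6 CPM in SKO libraries, against 29.1, 17.7 and 17.8 CPM in wild type libraries, overlapping, and did not pass. Cfap61, of the spoke adaptor, pointed the other way with 6.34, 4.65 and 6.74 CPM in SKO libraries, against 3.03, 2.49 and 2.82 CPM in wild type libraries, without overlap, but missed the threshold (log2 fold change 1.09, SE 0.40, edgeR adjusted p = 0.0592). Rsph4a and Rsph6a, which in the mouse serve epithelial cilia and the sperm tail, were too low to test, with at most 13 counts in a library. Without Rsph1 the spoke genes summed to 56.8 ± 5.63 CPM in SKO libraries and 74.4 ± 14.4 CPM in wild type libraries (SD, n = 3 each).

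The central apparatus had the steepest fold changes, at low levels. Spag16 (chr1:69826970-70725132, plus strand), a central pair scaffold whose promoter is shown above, had 8.97, 12.1 and 9.24 CPM in SKO libraries, against 26.7, 18.5 and 22.7 CPM in wild type libraries. It was lower without overlap (log2 fold change -1.17, SE 0.25, edgeR adjusted p = 0.00283) and kept its call in all 15 other settings. Cfap74 (chr4:155409190-155466823, plus strand), of a central pair projection, had 22, 4 and 21 counts in SKO libraries, against 50, 99 and 118 counts in wild type libraries, which came to 1.81, 0.372 and 2.02 CPM in SKO, against 3.22, 5.74 and 7.73 CPM in wild type. Its groups did not overlap (log2 fold change -1.98, SE 0.60, edgeR adjusted p = 0.0234), but the call was lost without SKO library 2 (-1.54, edgeR adjusted p = 0.0689), wild type library 2 (-1.96, edgeR adjusted p = 0.0601) or wild type library 3 (-1.67, edgeR adjusted p = 0.0949).

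Spag17 and Spag6l, which bind each other in the central apparatus, were named after their values were seen, because their wild type means lie under 5 CPM. Spag17 had 1, 2 and 2 counts in SKO libraries, against 72, 26 and 70 counts in wild type libraries. It carried the steepest fitted change of any member (log2 fold change -4.48, SE 0.84, edgeR adjusted p = 0.00123), although limma-voom gave -4.04 with an adjusted p of 0.0663. Spag6l had 4, 4 and 0 counts in SKO libraries, against 40, 63 and 42 counts in wild type libraries (log2 fold change -3.61, SE 0.90, edgeR adjusted p = 0.00786). Both were at or near the floor of 3 counts in SKO libraries, so the fitted folds depend on how the fit treats small counts. Its paralog Spag6, with 11, 6 and 8 counts in SKO libraries, against 7, 8 and 2 counts in wild type libraries, was too low to test, and only 0.76% of Spag6l windows are shared with it. Cfap69, of a central pair projection in the sperm tail, showed 46.4, 47.4 and 37.3 CPM in SKO libraries, against 43.6, 37.6 and 51.3 CPM in wild type libraries. Its groups overlapped fully (log2 fold change -0.01, SE 0.17). Cfap54, Cfap65 and Cfap70 did not pass, with log2 fold changes from -1.50 to -0.05. Thus 4 of the 8 tested central apparatus genes were lower (50%) and none was higher, against 14.4% and 14.1% of all tested genes. Spag17 and Spag6l passed the low-count filter only through their wild type counts, so this share depends in part on which genes could be tested.

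Among tektins and other proteins of the doublet wall, 3 of 6 tested genes were lower (50%, against 14.4% of all tested genes). A further 6 were too low to test. Tekt1 (chr11:72344722-72362442, minus strand), a filament protein inside the doublets, had 3.29, 3.82 and 1.73 CPM in SKO libraries, against 12.1, 9.04 and 7.53 CPM in wild type libraries, without overlap (log2 fold change -1.69, SE 0.39, edgeR adjusted p = 0.00507). Cfap20 (chr8:95420249-95434869, minus strand), which sits at the inner junction of the doublet, was abundant, with 197, 186 and 192 CPM in SKO libraries, against 314, 289 and 244 CPM in wild type libraries. It had a smaller difference (log2 fold change -0.56, SE 0.11, edgeR adjusted p = 0.00204), again without overlap. Cfap126, a basal body and doublet protein also called Flattop and likewise named after its values were seen, had 14, 8 and 11 counts in SKO libraries, against 70, 71 and 75 counts in wild type libraries (log2 fold change -2.18, edgeR adjusted p = 0.0066). Tekt1, Cfap20 and Cfap126 kept their calls in every setting in which they were tested. Tekt2, Tekt3, Tekt4 and Tekt5 were at 3.08 CPM or less in every library. Tekt1 was above that level in every library except SKO library 3, where Tekt1 had 1.73 CPM and Tekt2 3.08 CPM. Tekt2 was the only one of these 4 to be tested, and it shares more than 20% of its exon length with Gm12945 on the other strand.

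Ropn1l (chr15:31441211-31453737, minus strand), a ropporin that binds A-kinase anchoring proteins in the spoke and the tail sheath, stood in place 5 of the members per kilobase in wild type libraries. It had 23.2, 21.8 and 18.4 CPM in SKO libraries, against 52.3, 60.6 and 69.5 CPM in wild type libraries. The groups were far apart (log2 fold change -1.52, SE 0.18, edgeR adjusted p = 3.12e-05), and the call held in all 15 other settings. Its sperm paralog Ropn1 had 2, 8 and 0 counts in SKO libraries and no count in wild type libraries, which is too little to test.

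**Figure D3:**
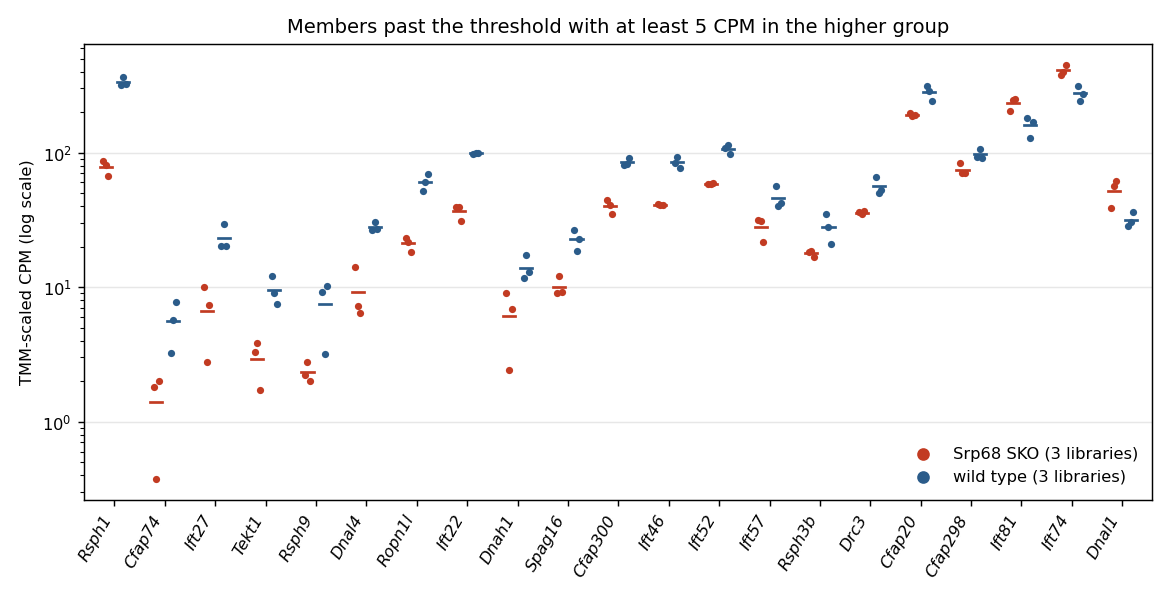
TMM-scaled CPM (log axis) of the 21 members that passed the test and average at least 5 CPM in the higher genotype, with 1 point per library and a line at each mean. In all 21 the SKO and wild type points do not overlap; Rsph1 is farthest apart among those above 50 CPM in wild type, and Ift81, Ift74 and Dnal1 are the genes with SKO above wild type.

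Of 12 tested dynein members 2 were lower (16.7%) and 1 higher (8.33%), near the 14.4% and 14.1% of all tested genes. Of 15 axonemal heavy chains, the motor subunits, 9 were tested and 1 was lower (11.1%). Dnah1 (chr14:31260375-31323896, minus strand), an inner arm motor, had 9.05, 2.42 and 6.93 CPM in SKO libraries, against 11.8, 17.2 and 13 CPM in wild type libraries (log2 fold change -1.18 with SE 0.40, edgeR adjusted p = 0.0374). The groups did not overlap, but the call was lost when any library other than SKO library 1 was left out (log2 fold changes -0.81 to -1.29, edgeR adjusted p = 0.0552 to 0.13). Dnah8, the outer arm motor of the sperm tail, had a similar pattern, with 7.74, 2.42 and 7.89 CPM in SKO libraries, against 8.51, 16.2 and 14.3 CPM in wild type libraries, and just missed the threshold (log2 fold change -1.11, SE 0.41, edgeR adjusted p = 0.0578). Dnah12 leaned the other way, with 16.1, 12.5 and 9.05 CPM in SKO libraries, against 5.67, 6.72 and 8.64 CPM in wild type libraries (log2 fold change 0.84, SE 0.31, edgeR adjusted p = 0.0586). Dnah5, Dnah9 and Dnah11, motors of epithelial cilia, and Dnah17, a motor of the sperm tail, had at most 24 counts in any library. Dnah7a, Dnah7b and Dnah7c share 40.3% to 48.5% of their windows and are uncertain; none passed.

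The dynein light chains moved apart. Dnal4 (chr15:79761453-79777849, minus strand), an outer arm light chain, had 14.1, 7.26 and 6.45 CPM in SKO libraries, against 26.7, 30.6 and 26.9 CPM in wild type libraries. It fell without overlap (log2 fold change -1.60, SE 0.29, edgeR adjusted p = 0.000881), and a correction for GC content and length gave -1.01 (edgeR adjusted p = 0.00759). Dnal1 (chr12:84114366-84147498, plus strand), a light chain that binds the motor domain of an outer arm heavy chain, had 38.7, 56.5 and 61.1 CPM in SKO libraries, against 28.7, 30.5 and 36.1 CPM in wild type libraries. The lowest SKO library was close to the highest wild type library (log2 fold change 0.71, SE 0.19, edgeR adjusted p = 0.0121). Its call was lost without SKO library 2 (0.65, edgeR adjusted p = 0.067), SKO library 3 (0.58, edgeR adjusted p = 0.0746) or wild type library 1 (0.65, edgeR adjusted p = 0.0551), and with library totals (0.44, edgeR adjusted p = 0.0865). Dnaic1, an outer arm intermediate chain, had 3.54, 8.28 and 6.64 CPM in SKO libraries, against 18.2, 7.70 and 7.20 CPM in wild type libraries, and did not pass. Dnaic2 was at 0 in all 6 libraries, which allows at most the 3-count floor given above.

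Dynein arms are put together in the cytoplasm before they enter the axoneme. Cfap300 (chr9:8021672-8042823, minus strand), one of the proteins needed for that step, had 44.1, 40.9 and 34.9 CPM in SKO libraries, against 81.3, 82.3 and 90.5 CPM in wild type libraries. It was lower in every SKO library and in all 15 other settings (log2 fold change -1.08, SE 0.14, edgeR adjusted p = 9.11e-05). Cfap298 (chr16:90925809-90935114, minus strand), another such protein, had 83.4, 71.0 and 69.96 CPM in SKO libraries, against 93.4, 107 and 91.8 CPM in wild type libraries (log2 fold change -0.38, SE 0.13, edgeR adjusted p = 0.0441). That call was lost in 7 of 15 settings, among them each single removal of SKO library 2 or 3 or wild type library 1 or 2 (edgeR adjusted p = 0.162, 0.149, 0.0705 and 0.165), and 53.6% of its exon length overlaps Gm49727 on the opposite strand, so its reads cannot be assigned with certainty. Spag1, also an assembly factor, did not pass (log2 fold change 0.33, SE 0.36). Of 15 listed assembly factors outside the naming rule 12 were tested, of which 4 were lower (33.3%) and none higher. The shares of all tested genes were 14.4% and 14.1%. Ruvbl2, Pih1d1 and Ruvbl1, which belong to a general chaperone complex as well, had log2 fold changes of -1.04, -0.89 and -0.50. Dnaaf1, a cilia-specific factor, had 2.39, 3.35 and 1.16 CPM in SKO libraries, against 7.60, 7.30 and 8.71 CPM in wild type libraries (log2 fold change -1.77, edgeR adjusted p = 0.00718), and 20.7% of its exon length overlaps Taf1c.

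The molecular ruler sets the repeat of the axoneme, and the nexin-dynein regulatory complex links neighbouring doublets. Drc3 (chr11:60353329-60394341, plus strand), a subunit of the complex, was even across SKO libraries at 35.9, 35.1 and 36.7 CPM, against 66.2, 50.2 and 52.5 CPM in wild type libraries. It was lower without overlap (log2 fold change -0.65, SE 0.16, edgeR adjusted p = 0.00751), though not after the GC content and length correction (-0.39, edgeR adjusted p = 0.0925). Ccdc39 and Ccdc40, the coiled-coil pair of the ruler, both lay below wild type in every SKO library but did not pass. Ccdc39 shares 29.6% of its 50-base windows with Ttc14, so its counting is uncertain. Ccdc40 had 1.56, 2.33 and 2.12 CPM in SKO libraries, against 5.54, 2.90 and 5.11 CPM in wild type libraries (log2 fold change -1.17, SE 0.49, edgeR adjusted p = 0.0901). Drc1 and Drc7, further subunits, had counts in wild type library 2 only, 14 and 16. The tether and inner arm regulators Cfap43, Cfap44 and Cfap57 had log2 fold changes from -1.80 to -0.64 and none passed.

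The remaining Cfap genes, whose roles in the axoneme are less settled, held no call. Cfap36, which binds the small GTPase ARL3, was in place 2 per kilobase in wild type libraries. It had 332, 395 and 385 CPM in SKO libraries, against 418, 405 and 462 CPM in wild type libraries, all SKO libraries below but not past the threshold (log2 fold change -0.21, SE 0.10, edgeR adjusted p = 0.158). Cfap97, a relative of the fly gene hemingway, had 89.5, 80.8 and 76.9 CPM in SKO libraries, against 82.2, 79.5 and 93.2 CPM in wild type libraries, with overlap (log2 fold change -0.04, SE 0.13). Cfap299 had 5.76, 4.28 and 7.70 CPM in SKO libraries, against 6.89, 5.62 and 5.30 CPM in wild type libraries, also with overlap (log2 fold change -0.01, SE 0.36). Cfap97d1 was at 0 in every library.

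IFT genes were all expressed, and all 14 passed the low-count filter. Within IFT-B, 5 of 11 genes were lower (45.5%) and 2 higher (18.2%) in SKO, against 14.4% and 14.1% of all tested genes. None of the 3 IFT-A members passed. Ift74 (chr4:94614491-94693229, plus strand) and Ift81 (chr5:122550204-122614518, minus strand) form the tubulin-binding module of the train, and both rose. Ift74 had 379, 398 and 450 CPM in SKO libraries, against 315, 242 and 273 CPM in wild type libraries (log2 fold change 0.56, SE 0.12, edgeR adjusted p = 0.00229). Ift81 had 203, 246 and 252 CPM in SKO libraries, against 182, 129 and 169 CPM in wild type libraries (log2 fold change 0.55, SE 0.14, edgeR adjusted p = 0.00809). In both genes every SKO library lay above every wild type library. With library totals as scaling both kept their direction, and Ift81 lost its call (0.28, edgeR adjusted p = 0.1).

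The lower IFT-B genes included both small GTPases of the train. Ift22 (chr5:136908150-136915404, plus strand), a RAB-like GTPase that binds the Ift74 and Ift81 module, had 39.4, 39.2 and 31.3 CPM in SKO libraries, against 97.5, 99.2 and 99.3 CPM in wild type libraries. Its wild type libraries agree within 1.01 CPM (SD), and the SKO mean was 37.1% of theirs (log2 fold change -1.43, SE 0.14, edgeR adjusted p = 9.58e-06). Ift27 (chr15:78159463-78174107, minus strand), the other RAB-like GTPase, had 9.96, 2.79 and 7.31 CPM in SKO libraries, against 20.1, 29.2 and 20.3 CPM in wild type libraries. It fell by 1.79 on the log2 scale (SE 0.37, edgeR adjusted p = 0.00229), with SKO library 2 lowest, and by 1.43 without that library (edgeR adjusted p = 0.00627). Ift46 (chr9:44767908-44793447, plus strand), which is needed to carry outer dynein arms in Chlamydomonas, had 41.3, 40.5 and 41.0 CPM in SKO libraries, against 84.2, 93.5 and 76.7 CPM in wild type libraries (log2 fold change -1.05, SE 0.14, edgeR adjusted p = 8.65e-05). Ift52 (chr2:163017354-163046141, plus strand), its partner in the train core, had 58.7, 58.8 and 59.2 CPM in SKO libraries, against 109, 115 and 97.7 CPM in wild type libraries (log2 fold change -0.86, SE 0.13, edgeR adjusted p = 0.000176). Both were very even among SKO libraries and did not overlap wild type. Ift57 (chr16:49699233-49765126, plus strand), a subunit of the peripheral IFT-B complex, had 31.4, 31.3 and 21.6 CPM in SKO libraries, against 56.3, 40.3 and 42.1 CPM in wild type libraries (log2 fold change -0.72, SE 0.20, edgeR adjusted p = 0.0152). Its call was lost without SKO library 3 (-0.56, edgeR adjusted p = 0.0733) or wild type library 1 (-0.55, edgeR adjusted p = 0.0859).

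The other 4 IFT-B genes did not pass, with 3 of them above zero and Ift172 below. Ift20, which also works at the Golgi, had 228, 240 and 239 CPM in SKO libraries, against 195, 214 and 219 CPM in wild type libraries (log2 fold change 0.17, SE 0.10). Ift88, a core subunit whose loss in the mouse blocks ciliogenesis, had 107, 109 and 103 CPM in SKO libraries, against 94.0, 89.4 and 88.7 CPM in wild type libraries (log2 fold change 0.23, SE 0.12). Ift80 had 52.9, 66.9 and 62.7 CPM in SKO libraries, against 48.3, 37.1 and 49.3 CPM in wild type libraries (log2 fold change 0.44, SE 0.16, edgeR adjusted p = 0.0598). In these 3 genes every SKO library lay above every wild type library, and with library totals as scaling Ift20 and Ift88 changed sign (-0.09 and -0.04). The largest IFT-B protein gene, Ift172, had 8.15, 8.47 and 5.00 CPM in SKO libraries, against 6.70, 12.5 and 13.6 CPM in wild type libraries, with overlap (log2 fold change -0.60, SE 0.35, edgeR adjusted p = 0.223).

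In IFT-A, Ift43 had 78.0, 69.4 and 89.7 CPM in SKO libraries, against 86.0, 81.0 and 75.8 CPM in wild type libraries, with no clear difference (log2 fold change -0.03, SE 0.14). Ift122 had 23.7, 31.9 and 25.8 CPM in SKO libraries, against 28.3, 51.7 and 43.8 CPM in wild type libraries and just missed the threshold (log2 fold change -0.61, SE 0.22, edgeR adjusted p = 0.0571), which it passed in 6 of the 15 other settings. Ift140 had 4.20, 3.91 and 4.91 CPM in SKO libraries, against 10.5, 7.53 and 6.62 CPM in wild type libraries, without overlap (log2 fold change -0.92, SE 0.35, edgeR adjusted p = 0.0619).

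**Figure D4:**
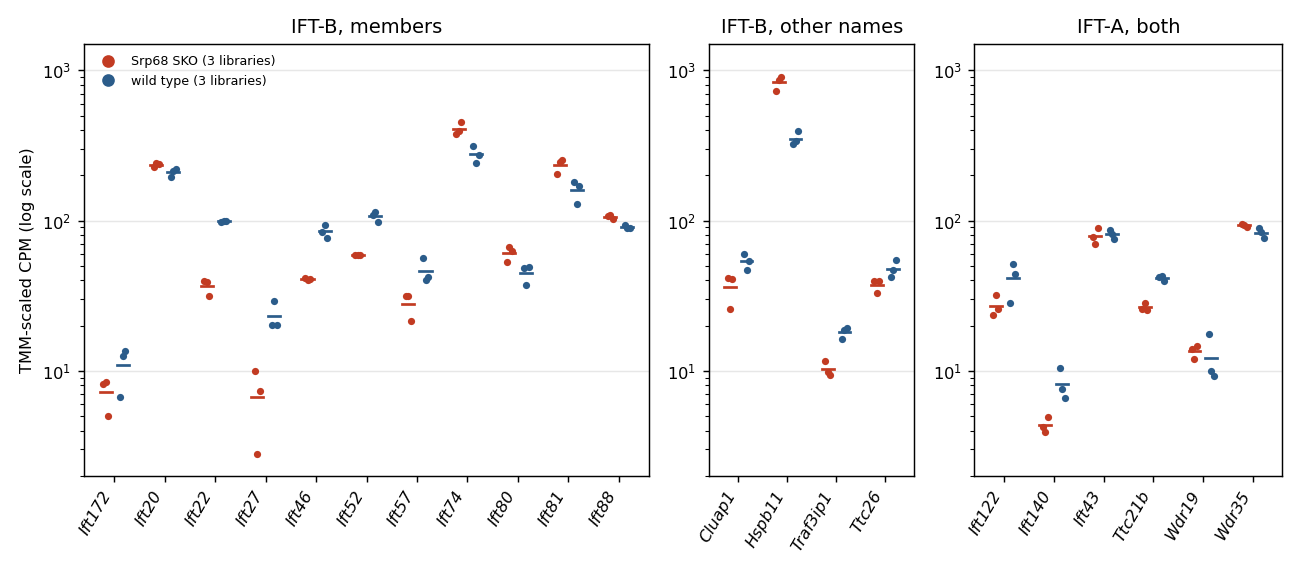
TMM-scaled CPM (log axis) of IFT-B and IFT-A genes in every library, members of the naming rule and partners that carry other names, with a line at each mean. Of the genes drawn, those called higher in SKO are Ift74, Ift81 and Hspb11. Those called lower are Ift22, Ift27, Ift46, Ift52, Ift57, Traf3ip1, Cluap1 and Ttc21b, and 40.8% of the exon length of Cluap1 overlaps another gene.

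Several subunits and motors of IFT carry other names, and 22 of 23 such listed genes were tested. Of these, 8 were lower (36.4%) and 2 higher (9.09%) in SKO, against 14.4% and 14.1% of all tested genes. Hspb11 encodes IFT25, the obligate partner of Ift27, and had 733, 869 and 908 CPM in SKO libraries, against 324, 338 and 393 CPM in wild type libraries (log2 fold change 1.25 with SE 0.11, edgeR adjusted p = 4.46e-06). The 2 genes of this heterodimer were thus called in opposite directions, each without overlap. Rabl2, a GTPase that loads onto IFT-B and is needed for the mouse sperm tail, had 46.8, 38.4 and 43.5 CPM in SKO libraries, against 159, 139 and 136 CPM in wild type libraries (log2 fold change -1.75, SE 0.13, edgeR adjusted p = 1.39e-06). Wdr34, an intermediate chain of dynein-2, fell to 14.7, 11.1 and 7.03 CPM in SKO libraries, against 38.0, 46.5 and 38.0 CPM in wild type libraries (log2 fold change -1.90, SE 0.25, edgeR adjusted p = 8.65e-05). Ttc21b, the IFT-A subunit IFT139, had 25.8, 28.1 and 25.4 CPM in SKO libraries, against 42, 42.9 and 39.8 CPM in wild type libraries (log2 fold change -0.65, SE 0.17, edgeR adjusted p = 0.0089). Ttc30a2, an IFT-B subunit with close paralogs and therefore uncertain, had 0, 0 and 5 counts in SKO libraries, against 96, 27 and 50 counts in wild type libraries. The IFT-A genes Wdr19 and Wdr35 and the heavy chain Dync2h1 did not pass.

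Per kilobase of exon the members covered a wide range of levels. In wild type libraries Rsph1 led with 244 ± 18.4 CPM per kb, followed by Cfap36 at 156 ± 10.9, Ift20 at 137 ± 8.25 and Ift74 at 104 ± 13.6 CPM per kb (SD, n = 3). Neighbours among these 4 differed by more than either SD. Ropn1l, Cfap20 and Cfap298 followed at 63.5 ± 9.04, 63.4 ± 8.02 and 61.2 ± 5.13 CPM per kb (SD, n = 3) and did not differ beyond their spread. In SKO libraries Ift20 led at 155 ± 4.37 CPM per kb, with Ift74 at 154 ± 13.8 and Cfap36 at 135 ± 12.3 CPM per kb (SD, n = 3), the first 2 within their spread. Spag17 had 0.018 CPM per kb in SKO libraries and 0.421 CPM per kb in wild type libraries. The 30 untested members had 0 to 51 counts summed over all libraries and at most 31 in any one. Of them 7 had no count in SKO libraries and 6 none in wild type libraries, including Dnaic2 and Cfap97d1, which had none in either.

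Fold changes moved with the GC content of transcripts across the whole table, and the part of GC content in the members' differences was not tested beyond the values given here. Across genes, Spearman's rho between GC content of the longest transcript and log2 fold change was -0.37 over the 60 tested members and -0.34 over 13452 tested genes, where the genes share the same 6 libraries. Among transcripts of up to 42% GC, 1 of 8 members was lower, against 4.76% of all tested genes in that band. From 42 to 46% GC it was 3 of 14, against 9.29%, and from 46 to 50% GC 3 of 11, against 12.7%. From 50 to 54% GC, where Rsph1, Ift22 and Tekt1 lie, 9 of 19 members were lower, against 19% of all, and above 54% GC 5 of 8, against 23%. All 3 higher members lay below 46% GC, 1 of 8 members up to 42% GC and 2 of 14 from 42 to 46% GC. Of all tested genes 27.7% and 20.2% were higher in these bands. With loess offsets for GC content and length in each library, 20 members were lower and 3 higher and 16 of the 21 lower ones kept their call. The members' median was then -0.50 and that of all tested genes -0.01. Rsph1 stood at -1.96, Spag16 at -1.39 and Ift22 at -1.09, all past the threshold, while Cfap298, Dnah1, Drc3, Rsph3b and Rsph9 were not. Dnah14, Dnah7a, Dnah8 and Ccdc39 passed as lower in that fit, with uncertain counting for Dnah7a and Ccdc39.

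**Figure D5:**
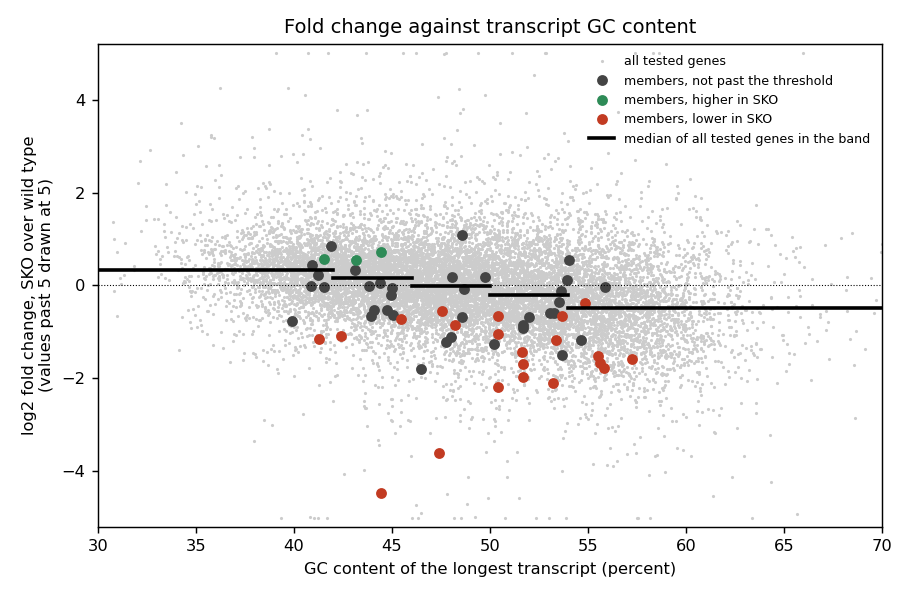
Log2 fold change, SKO over wild type, against GC content of the longest transcript for all tested genes (grey) and the members (coloured by call), with black lines at the median of all tested genes in each band. All lower members (red) except Cfap298 lie below the median of their band, and the 3 higher members (green) lie above them at under 46% GC.

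Genes with related work were counted from lists. Of 31 tested axonemal and sperm tail genes with other names 10 were lower (32.3%) and 2 higher (6.45%), against 14.4% and 14.1% of all tested genes. Meig1, which is needed for the manchette of mouse spermatids, had 105, 130 and 116 CPM in SKO libraries, against 214, 220 and 284 CPM in wild type libraries (log2 fold change -1.03, edgeR adjusted p = 7.26e-05). Gas8, a core subunit of the nexin-dynein regulatory complex, had 1.40, 1.86 and 2.02 CPM in SKO libraries, against 5.54, 9.04 and 5.96 CPM in wild type libraries (log2 fold change -1.96, edgeR adjusted p = 0.00381). Efhc2, a protein of the doublet lumen, was higher at 23.7, 27.3 and 20.6 CPM in SKO libraries, against 14.2, 10.1 and 10.5 CPM in wild type libraries (log2 fold change 1.04, edgeR adjusted p = 0.00464). Nme5, a radial spoke protein, was lower (log2 fold change -0.78, edgeR adjusted p = 0.00551), and so was Mns1 (-0.81, edgeR adjusted p = 0.000887), which shares 53% of its exon length with Tex9. Akap4 and Tcte1, genes of the finished sperm tail, were at 0 in every library.

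Genes at the base of the cilium were counted in the same way, beside 14.4% lower and 14.1% higher among all tested genes. Of 25 tested transition zone and BBSome genes 7 were lower and 3 higher. Arl3, a GTPase that releases lipid-modified cargo in cilia, was lower, with 17.9, 15.8 and 17 CPM in SKO libraries, against 35.3, 36.2 and 41.6 CPM in wild type libraries (log2 fold change -1.16, edgeR adjusted p = 0.000376). The transition zone genes B9d1 and B9d2 were also lower (log2 fold changes -0.77 and -1.25), while Iqcb1 and Bbip1 were higher (0.56 and 0.68). Of 23 tested centriole and basal body genes 5 were lower and 5 higher, a share of each direction not far from that background. Cetn1, the male germ cell centrin, had 1.48, 1.77 and 1.44 CPM in SKO libraries, against 6.89, 11.5 and 12.7 CPM in wild type libraries (log2 fold change -2.72, SE 0.40, edgeR adjusted p = 0.000176). Its relative Cetn2 had 374, 416 and 482 CPM in SKO libraries, against 246, 220 and 243 CPM in wild type libraries (log2 fold change 0.84 with SE 0.11, edgeR adjusted p = 8.69e-05). The centriolar genes Poc1a (-1.29), Sclt1 (0.80) and Cep83 (0.57) were called on either side as log2 fold changes.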

How the data were processed

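Members and gene lists were chosen with earlier results of these data known. The authors deposited 1 table of raw counts of reads per gene, without normalization, and its columns name SKO libraries CKO, which were matched by genotype and replicate number. The submitters' processing notes name FastQC, Trim Galore 0.6.4 and HISAT2 2.0.5 with GRCm38, while the sources used here do not name the counter. GENCODE vM21 supplied symbols, positions and exon lengths for 49325 IDs, not for 259. Counts were fitted in R 4.3.3 with edgeR 4.0.16: filterByExpr, TMM, quasi-likelihood test with genotype as the only term, Benjamini-Hochberg over 13474 genes. Alternatives used other scalings and filters, DESeq2 1.42.0, limma-voom 3.58.1, a replicate block, GC content and length offsets (loess span 0.3), and each library left out. GC bands were chosen after seeing the data. Genes named in full were Rsph1, called members without overlap averaging at least 5 CPM in the higher genotype, the 10 highest uncalled members per kilobase, and up to 5 called genes per neighbouring list; other genes given with values were chosen after their values were seen. Counting was called uncertain where over 20% of exon length or of 50-base windows was shared, as for 8 members. Without molecular identifiers, floors of 3 counts cover counting error only. Strand is not marked by the kit as far as the labels say. Promoter sequences of other members are not reported here.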

Additional observations from a re-analysis of the deposited data

How the results depend on the processing

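All 21 lower members kept a negative sign in every setting run for them, and the 3 higher members a positive one. The counts of lower members ran from 15, at an adjusted p under 0.01, to 29, with library totals. Against 3 higher members, there were 5 with upper-quartile scaling, 1 with library totals, 5 with a filter of 5 CPM in 3 libraries and 6 with DESeq2, and 2 to 4 with each library left out. Calls over all genes were 1010 higher and 3168 lower with library totals, and 1230 higher and 1142 lower at an adjusted p under 0.01. The members' median log2 fold change was -0.911 with library totals and -0.504 with the GC content and length correction, and ran from -0.643 to -0.559 with each library left out. The named members without a call that changed sign had log2 fold changes from -0.116 (Rsph3a) to 0.226 (Ift88) in the main fit. Cfap299 was 0.00903 with DESeq2 size factors, 0.0278 with upper-quartile scaling, 0.00892 in DESeq2 and ran from -0.242 to 0.175 with libraries left out. Ift43 was 0.00103 with upper-quartile scaling and 0.381 with the GC content and length correction, Cfap69 0.0189 with upper-quartile scaling, and Rsph3a 0.379 with the GC content and length correction. With library totals Ift20 was -0.093 and Ift88 -0.0357. With each library left out Ift43 ran from -0.136 to 0.0467, Cfap69 from -0.118 to 0.108, Rsph3a from -0.299 to 0.164 and Cfap97 from -0.11 to 0.03. The cause of these moves was not tested. The deviations of same-numbered libraries from their group means correlated at 0.0214, -0.0505 and 0.0391. With 3 libraries a group such values cannot settle whether samples were matched by replicate number. The replicate block gave 24 lower and 3 higher members and 1976 higher and 1991 lower genes. With 3 libraries a group an exact permutation test cannot go below p = 0.1.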
